A study of Camellia sinensis with 15 samples.

Results

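In roots of untreated tea seedlings and of seedlings treated with cadmium (Cd) or arsenic (As), 100 genes of moderate expression varied least between libraries, and they are described here as candidate reference genes. A reference gene is a gene whose transcript level is taken as constant, so that the levels of other genes can be expressed relative to it, as in qRT-PCR. Genes for glycolytic enzymes, actin, tubulin and ubiquitin are customary choices in plants, and the study itself used a GAPDH gene, which codes for a glycolytic enzyme. Because Cd and As provoke oxidative stress in roots, a gene that serves as reference in untreated plants may itself respond to the metal, so stability has to be measured under the treatments.

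The members were chosen by their standard deviation (SD) in these same libraries. The value of a gene was log2(FPKM + 1), where FPKM is the number of fragments per kilobase of gene length, scaled to the depth of the library. Of the 59128 genes in the deposited tables, 7457 had an FPKM from 10 to 200 in all 14 libraries used, and they are called the FPKM window. The 100 genes of the window with the lowest SD are the members. The choice used every library and every group, so the levels, the SD and the differences between groups given here are descriptions of the chosen genes and no evidence of stability.

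The samples were roots of 2-year-old seedlings of the cultivar Fuding Dabaicha, with wild type given as genotype in every label. CK was untreated. The treated plants were poured, per the methods, with 400 mL of a solution of 120 mg/kg Cd (II) or As (V), and roots were taken at 10 d (Cd1 and As1) or 15 d (Cd2 and As2). The labels themselves give day 15 for every library, CK included, so the 10 d of Cd1 and As1 rests on the paper's methods. Each group was labelled with 3 libraries, but the 3rd Cd1 library held the very values of Cd2 replicate 1 and was not used as Cd1, which left 2 libraries in Cd1 and 3 in each other group. The paper calls the replicates of its enzyme and qRT-PCR measurements biological, but for the sequenced libraries no source used here says whether replicates were separate plants, so the spread between them, and p-values that rest on it, may be partly technical. The steps between FPKM values gave back whole fragment counts, with 10483009 to 13846840 fragments per library. The depth that the FPKM values imply was not the same as these totals, so the scaling between libraries is that of the authors. In bulk RNA, fewer cells of a type and less RNA per cell cannot be told apart. The gene identifiers (CSS numbers) are not paired with names or functions in the tables used here, so neither the roles of the members nor markers of root tissue could be checked, and no sequence or position is given.

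The SD of the members lay between 0.057 and 0.12 on the log2 scale, with a median of 0.11. The median over the whole window was 0.29 (range 0.057 to 1.43). Expressed on the linear scale, the coefficient of variation of FPKM was 3.99% to 9.46% in the members (median 8.25%), beside a median of 20.8% in the window. The highest library exceeded the lowest by 1.33-fold in the median member, and by less than 1.5-fold in 99 of the 100. The exception was CSS0005495, at 1.505-fold, from 22.9 FPKM in Cd1 replicate 2 to 34.4 in CK replicate 3. In the window, 47.7% of the genes stayed within a 2-fold range.

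**Figure D1:**
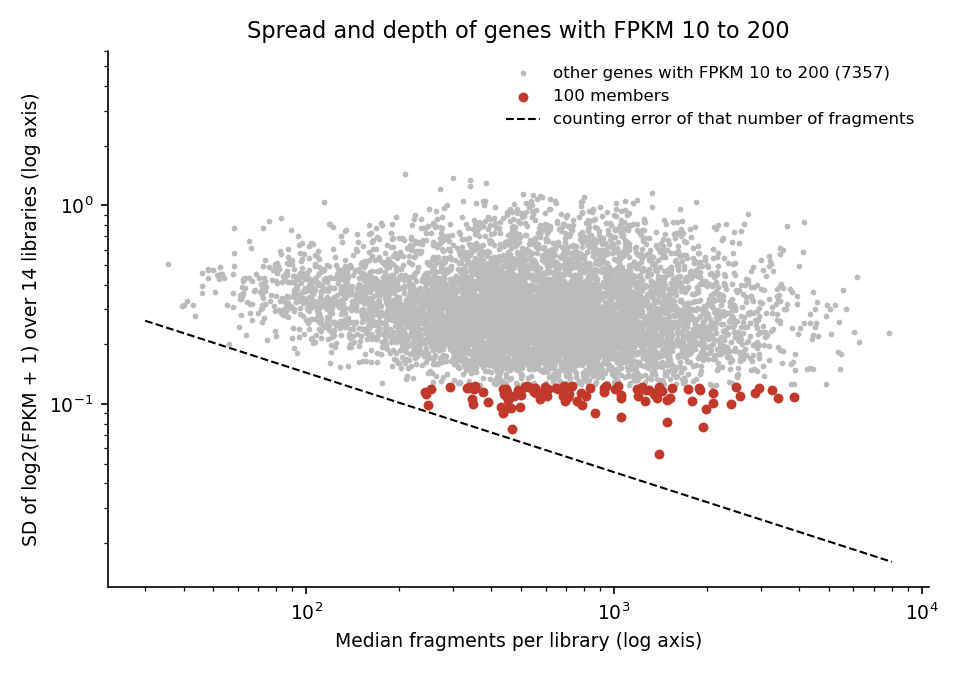
SD of log2(FPKM + 1) over 14 libraries against the median number of fragments per library, both on log axes, for the 100 members (red) and the other 7357 genes with an FPKM of 10 to 200 (grey). The dashed line is the SD that counting alone would give, and every member lies above it, from 1.15 to 4.72 times its own counting error.

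The lowest SD of all belonged to CSS0037990, at 0.057. Its FPKM was 52.6, 53.2 and 51.8 in CK, 57.0 and 55.0 in Cd1, 55.7, 57.1 and 51.7 in Cd2, 57.6, 57.7 and 52.8 in As1, and 56.0, 54.3 and 53.1 in As2. All 14 libraries lay within a 1.12-fold range, the CK libraries were in the lower part of it, and As1 replicate 2 was highest. With 1190 to 1706 fragments per library, counting error alone would give an SD of 0.038, which is 44.7% of its variance.

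CSS0044807 had the next lowest SD, 0.075, at a much lower level, between 11.9 and 14.7 FPKM. Its FPKM was 13.2, 11.9 and 13.7 in CK, 13.2 and 13.1 in Cd1, 12.5, 13.9 and 13.1 in Cd2, 12.0, 12.6 and 14.7 in As1, and 12.6, 13.0 and 13.3 in As2. The groups overlapped throughout, and no group mean differed from that of CK by more than 0.025 on the log2 scale. It had only 360 to 546 fragments per library, and counting error accounted for 70.9% of its variance.

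CSS0035466 (SD 0.077) and CSS0008508 (SD 0.082) stood at places 3 and 4. The FPKM of CSS0035466 was 57.2, 66.8 and 67.4 in CK, 67.5 and 67.9 in Cd1, 65.5, 66.8 and 61.0 in Cd2, 66.1, 69.3 and 65.2 in As1, and 64.0, 62.5 and 60.5 in As2. It was lowest in CK replicate 1, apart from the other CK libraries, and highest in As1 replicate 2. The FPKM of CSS0008508 was 52.4, 55.1 and 62.4 in CK, 55.1 and 55.2 in Cd1, 59.4, 53.9 and 55.2 in Cd2, 54.9, 55.0 and 60.1 in As1, and 56.9, 49.7 and 58.0 in As2. Its lowest library was As2 replicate 2 and its highest CK replicate 3, the groups overlapped, and its group means lay within 0.044 of CK.

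Places 5 to 10 were taken by CSS0032713, CSS0004967, CSS0026665, CSS0016260, CSS0038908 and CSS0034728, with SDs from 0.086 to 0.096. CSS0004967 was measured at 17.5, 18.5 and 18.9 in CK, 19.9 and 15.1 in Cd1, 17.3, 18.1 and 18.7 in Cd2, 18.3, 19.5 and 17.8 in As1, and 18.5, 17.4 and 18.6 in As2 FPKM. Its 2 Cd1 libraries were the highest and the lowest of all 14, so that the largest spread of this gene was between replicates of 1 group. CSS0038908, in contrast, had 34.8, 36.5 and 38.4 in CK, 41.7 and 40.7 in Cd1, 38.8, 41.1 and 42.0 in Cd2, 40.4, 36.7 and 44.0 in As1, and 40.8, 37.5 and 42.5 in As2 FPKM. Here CK replicate 1 was the lowest library, and all Cd1 and Cd2 libraries exceeded all CK libraries.

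CSS0032713 was measured at 30.2, 28.2 and 30.1 in CK, 29.5 and 28.9 in Cd1, 24.97, 30.9 and 29.3 in Cd2, 29.4, 28.7 and 28.9 in As1, and 25.7, 28.5 and 31.1 in As2 FPKM. Apart from Cd2 replicate 1 and As2 replicate 1, its libraries lay between 28.2 and 31.1 FPKM. CSS0016260 was measured at 23.7, 28.9 and 27.8 in CK, 26.8 and 29.8 in Cd1, 27.1, 26.3 and 27.4 in Cd2, 24.8, 27.3 and 28.5 in As1, and 28.0, 23.8 and 26.5 in As2 FPKM, lowest in CK replicate 1 and highest in Cd1 replicate 2, and CSS0034728 at 54.2, 49.8 and 48.7 in CK, 53.9 and 47.5 in Cd1, 48.8, 46.8 and 44.3 in Cd2, 52.1, 52.2 and 47.8 in As1, and 46.2, 53.8 and 45.03 in As2 FPKM. The latter was the one of these 3 with its highest library in CK and its lowest in Cd2.

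**Figure D2:**
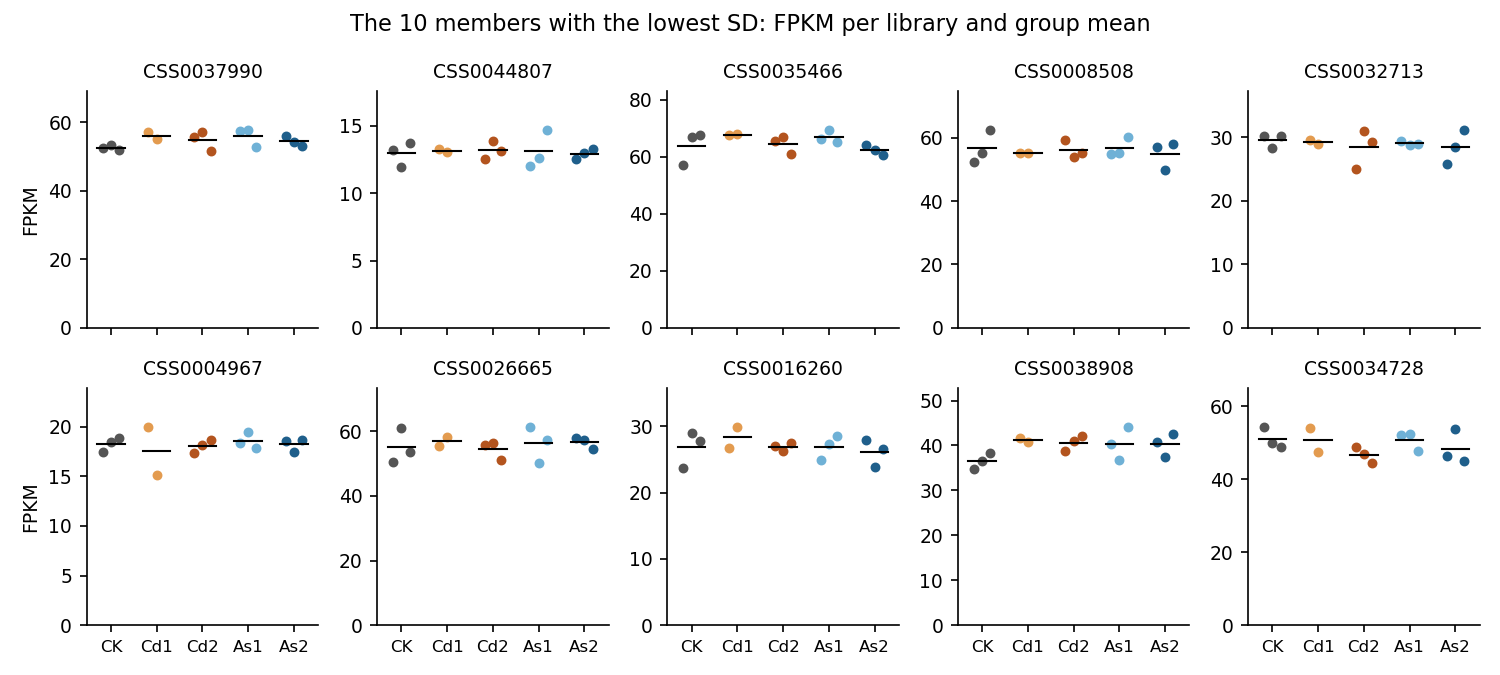
FPKM (linear axis from 0) of the 10 members with the lowest SD in each library, with 1 point per library and a black bar at each group mean (3 libraries per group, 2 in Cd1). The group means differ most in CSS0038908, with 36.6 FPKM in CK beside 40.3 (As2) to 41.2 (Cd1) in the treated groups. The widest ratio of highest to lowest library, 1.32-fold, is that of CSS0004967.

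The limit of the list falls inside a dense range of SDs. The members at places 99 and 100, CSS0028050 and CSS0016896, had SDs of 0.12344 and 0.12346, and the genes just outside, CSS0040780 and CSS0022604, had 0.12369 and 0.12390. Within 0.005 of the limit there were 38 members below it and 42 other genes above it. Membership near the limit is therefore a matter of small differences.

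The members covered much of the window's range of levels, from 13.04 FPKM on average in CSS0024844 to 108 in CSS0028180. Of them, 20 had a mean FPKM of 10 to 20, 52 of 20 to 50, 25 of 50 to 100 and 3 of 100 to 200, which was 1.49%, 1.28%, 1.48% and 0.811% of the window's genes at these levels. The lowest SD in each class was that of CSS0044807, CSS0032713 (0.086), CSS0037990 and CSS0028180 (0.11). CSS0028180 was measured at 106, 118 and 109 in CK, 112 and 119 in Cd1, 98.2, 103 and 120.4 in Cd2, 111, 115 and 108 in As1, and 99.4, 106 and 94.2 in As2 FPKM. CSS0043142 was of nearly the same mean level (107 FPKM), with its highest value in As1 replicate 1 (124) and its lowest in Cd2 replicate 2 (92.4). A reference gene is usually sought near the level of the gene of interest, and no member had a mean above 108.4 FPKM.

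The members came from longer genes than the window as a whole. Gene length was not used by the rule, and it followed from the recovered fragments as a whole number of bases for all 7457 genes. The median length was 2027.5 bases in the members and 1426 in the window. Members made up 0.261% of the window's genes shorter than 1000 bases, 1.35% of those from 1000 to 2000, 2.71% from 2000 to 3000 and 2.47% of the longer ones. The longest members were CSS0001430 (4376 bases) and CSS0038908 (4225 bases), and the shortest were CSS0040743 (654 bases) and CSS0034728 (753 bases).

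At equal FPKM a longer gene yields more fragments, and the members were also sampled more deeply, with a median of 716 fragments per library beside 543.5 in the window. Among genes of the window with fewer than about 324.5 fragments, 5 of 1859 were members, and among those with more than 937.5, 40 of 1865. The median counting error in these classes was 0.096 and 0.039, while the median SD was 0.32 and 0.27. Across the 7457 genes, Spearman's rho of SD with length was -0.31 and with fragments -0.15, given as a description since genes are not independent replicates and share the same libraries. The part that depth plays in the choice of long genes was not tested.

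Counting error made up a median of 21.1% of the variance of a member, beside 4.60% in the window. It was at least 50% in 7 members, CSS0044807, CSS0004967, CSS0007539, CSS0024844, CSS0043135, CSS0019665 and CSS0040154, which were listed after their values were seen. The highest share was that of CSS0007539, with 76.2% at a median of 248.5 fragments. Its FPKM was 13.7, 12.5 and 14.2 in CK, 15.2 and 15.2 in Cd1, 14.6, 12.5 and 15.0 in Cd2, 15.2, 15.4 and 15.3 in As1, and 14.4, 13.5 and 15.5 in As2, with CK replicate 2 and Cd2 replicate 2 below the rest. For such genes this depth resolves little of the spread beyond counting. In 59 members, counting error was under 25% of the variance, so that the larger part of their variance lay beyond counting. Counting error as given here leaves out any error of amplification.

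Differences between the groups were small in all members. The largest difference of a group mean from CK was 0.29 on the log2 scale, and it stayed under 0.2 in 75 of the 100 members and under 0.1 in 20. In the window, 9.60% of the genes stayed under 0.2 in all 4 treated groups. The median absolute difference from CK was 0.086 for the members and 0.27 for the window in Cd1, and 0.080 and 0.24 in As1. At the later time it was 0.074 and 0.18 in Cd2, and 0.074 and 0.17 in As2. In As1, 65 members were above CK and 35 below. Cd1 had 57 above and 43 below, As2 had 54 and 46, and Cd2 had 50 and 50. The highest group mean was in As1 for 28 members and in Cd1 for 27, and the lowest was in CK for 29. In the window, As1 was highest for 39.2% of the genes and CK lowest for 19.0%. Comparisons with CK share the 3 CK libraries, so these counts are not independent of each other.

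No member was called in any comparison. The test was limma on log2(FPKM + 1) over 33109 genes with all groups in 1 model, called at a Benjamini-Hochberg adjusted p under 0.05 with no fold limit. The background share of called genes was 5.77% over the 5 groups (moderated F test). Against CK it was 3.42% for Cd1 and 0.0332% for Cd2, and for the As groups it was 1.94% (As1) and 0.0151% (As2). At an unadjusted p under 0.05, 1 member passed in Cd1 vs. CK, 1 in As2 vs. CK, and 0 in the other 3 tests. Over all 33109 genes, 6590 passed this unadjusted threshold in Cd1 vs. CK and 2993 in As2 vs. CK, and in the other tests 8695 (F), 6162 (As1) and 4150 (Cd2) did. After quantile normalization, 7 members passed it in Cd1 vs. CK, 3 in the F test, 3 for Cd2, 1 for As1 and 1 for As2, and again 0 were called after adjustment by limma. Since the rule chose genes of low variance over the same libraries, nothing is read from the count of 0. The standard error of a difference in this fit lay between 0.12 and 0.17 for the members, wider than most of the differences, and a missed threshold does not show that a member is equal in the groups compared.

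The largest differences from CK were found in 4 members. CSS0024647 was measured at 51.6, 51.5 and 54.6 in CK, 45.7 and 39.8 in Cd1, 51.5, 51.4 and 50.8 in Cd2, 48.0, 49.8 and 51.9 in As1, and 52.5, 52.0 and 47.3 in As2 FPKM. Both Cd1 libraries were lower than every other library, and its log2 difference in Cd1 vs. CK was -0.29 with a standard error of 0.14 (limma adjusted p = 0.2502). CSS0005495 was also lower in Cd1, at 26.8 and 22.9 FPKM beside 29.1, 27.7 and 34.4 in CK.

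CSS0013997 was measured at 24.6, 22.5 and 22.9 in CK, 26.8 and 27.2 in Cd1, 28.4, 28.0 and 24.9 in Cd2, 24.1, 26.1 and 26.0 in As1, and 30.7, 26.6 and 29.0 in As2 FPKM. All As2 libraries exceeded all CK libraries, and the log2 difference in As2 vs. CK was 0.29 (limma adjusted p = 0.536). It was higher than CK on average in each treated group, but As1 replicate 1 lay within the range of CK. CSS0044423 was highest in As1, at 66.2, 69.9 and 63.2 FPKM, beside 51.5, 55.6 and 59.5 in CK, with a log2 difference of 0.26.

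Low total spread did not always mean that the spread lay within groups. The share of a member's variance that lay between groups ranged from 2.23% to 84.9% (median 39.2%), beside a median of 51.6% in the window. With 5 groups and 14 libraries, 30.8% is the share of the degrees of freedom between groups, and 64 members exceeded it. In the window even the lower quartile of the share between groups was 36.2%, so exceeding 30.8% is not particular to the members. The smallest shares were those of CSS0044807, CSS0008508 (5.90%) and CSS0026665 (7.86%). The FPKM of CSS0026665 was 50.5, 61.2 and 53.5 in CK, 55.6 and 58.4 in Cd1, 55.9, 56.5 and 51.2 in Cd2, 61.3, 50.2 and 57.3 in As1, and 58.0, 57.3 and 54.7 in As2. Its group means were nearly equal, and the spread was between replicates of CK and of As1.

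The largest shares were those of CSS0032857 (84.9%), CSS0048330 (81.2%) and CSS0045855 (76.0%). CSS0032857 was measured at 52.9, 54.1 and 58.7 in CK, 65.8 and 62.1 in Cd1, 50.5, 51.2 and 55.1 in Cd2, 52.5, 55.3 and 52.7 in As1, and 61.0, 62.3 and 60.5 in As2 FPKM. Its Cd1 and As2 libraries were higher than all other libraries, while the replicates of a group were close, with a within-group SD of 0.056. Its F test over the 5 groups had the smallest adjusted p of any member (0.362 from limma). For all members, limma moves a gene's variance toward that of genes of similar level. The standard error of this gene in As2 vs. CK was 0.12, so the p does not rest on its own within-group SD alone.

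CSS0048330 was measured at 30.6, 30.4 and 29.5 in CK, 34.1 and 32.6 in Cd1, 33.1, 33.0 and 33.7 in Cd2, 30.2, 32.9 and 30.4 in As1, and 28.0, 24.7 and 28.6 in As2 FPKM. The As2 libraries were lower than all others, and all 5 Cd libraries exceeded all 3 CK libraries and all 3 As2 libraries. CSS0045855 was measured at 53.5, 58.8 and 56.6 in CK, 49.0 and 45.9 in Cd1, 47.2, 49.3 and 53.2 in Cd2, 54.7, 52.9 and 53.3 in As1, and 59.5, 56.1 and 54.2 in As2 FPKM. Both Cd1 libraries and Cd2 replicates 1 and 2 were lower than every other library. A gene of this kind has a low SD over the whole set in the deposited values and is yet ordered by group.

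For 0 of the 100 members did all 11 treated libraries lie on one side of the 3 CK libraries. In the window this was so for 0.657% of the genes with the treated libraries above and 0.63% with them below.

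The members together were close to level across libraries. The mean deviation of the 100 members from their own means lay between -0.040 in CK replicate 1 and 0.043 in As1 replicate 3. By group it was highest in As1, at 0.018 ± 0.025 (SD, n = 3), and lowest in CK, at -0.014 ± 0.026 (n = 3). Cd1 stood at 0.010 ± 0.017 (n = 2), while As2 (-0.0032 ± 0.016, n = 3) and Cd2 (-0.0079 ± 0.012, n = 3) were slightly negative. The ranges of the libraries overlapped between all groups. In CK replicate 1, 68 of the 100 members lay below their own mean, and in As1 replicates 1 and 3, 63 lay above it.

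The window as a whole was not level in the deposited values. Its median deviation was 0.15 in As1 replicate 2, 0.097 in As1 replicate 3 and -0.099 in Cd1 replicate 2. Over all 33109 genes tested, the median deviation lay between -0.036 (As1 replicate 2) and 0.010 (CK replicate 3). The shift of the window was thus not that of all genes tested, and genes of other levels were not examined separately. Relative to the window's median, the members were thus low in As1 replicate 2 (mean deviation -0.15, with 87 members below their own mean) and high in Cd1 replicate 2 (0.097, with 79 above).

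**Figure D3:**
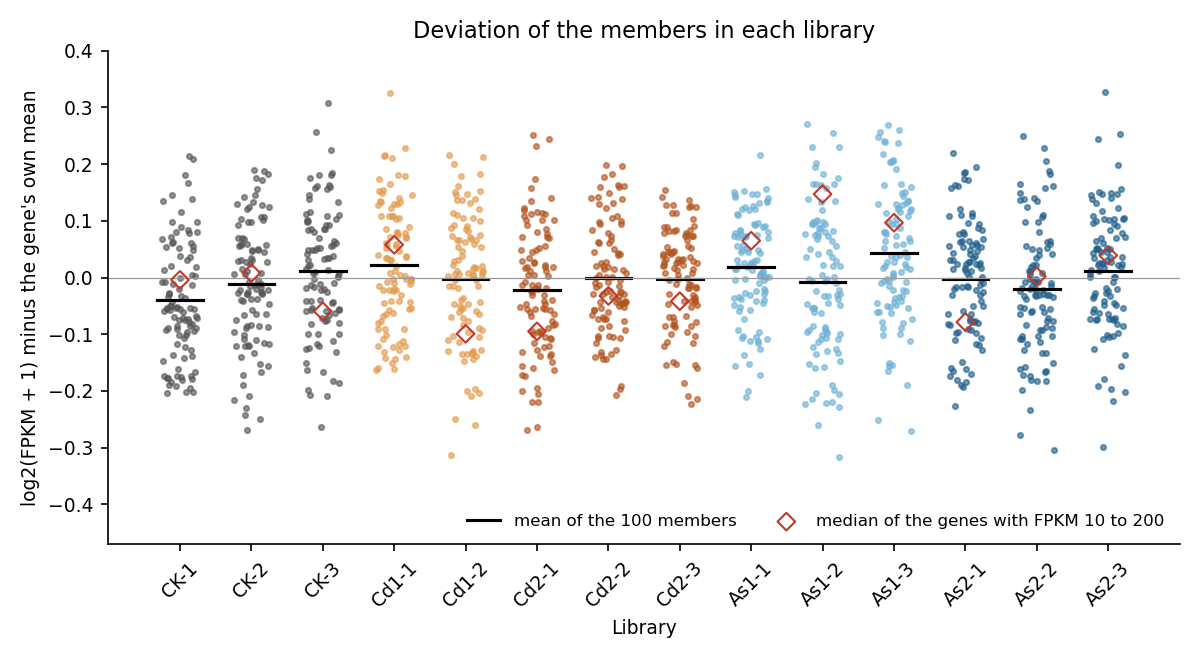
Deviation of log2(FPKM + 1) from the gene's own mean for the 100 members in each of 14 libraries (1 point per gene, coloured by group), with the mean of the members (black bar) and the median of the 7457 genes with an FPKM of 10 to 200 (open diamond). The bars stay within -0.040 and 0.043, whereas the diamonds reach 0.15 in As1 replicate 2.

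Which genes are most stable therefore depended on the scaling. After centring each library on the window's median, 38 of the 100 members were again among the 100 genes of lowest SD. Quantile normalization also kept 38, and scaling by the recovered total of fragments kept 37. In the mean SD of log2 ratios with all other genes of the window, in which the scaling of libraries cancels, 39 members ranked among the lowest 100; this measure was added after seeing the data. The members' median SD was 0.13 after centring on the window's median (range 0.068 to 0.18). In this list CSS0035703, a gene singled out after its values were seen, came first, at an FPKM of 78.9, 81.1 and 71.4 in CK, 81.5 and 71.2 in Cd1, 70.1, 74.2 and 79.1 in Cd2, 76.0, 84.8 and 81.5 in As1, and 66.5, 69.5 and 74.3 in As2. CSS0047131, also singled out afterwards, fell to place 994 of 7457. Of the 100 members, 24 were in the lowest 100 under all 3 other scalings and 48 under none of them. Of the first 10 members, CSS0044807, CSS0032713, CSS0004967 and CSS0034728 were in it under all 3, while CSS0037990 was at place 6 after centring and at place 167 after quantile normalization. CSS0008508 and CSS0038908 were in it under only 1 of the 3, and CSS0026665 and CSS0016260 under none.

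**Figure D4:**
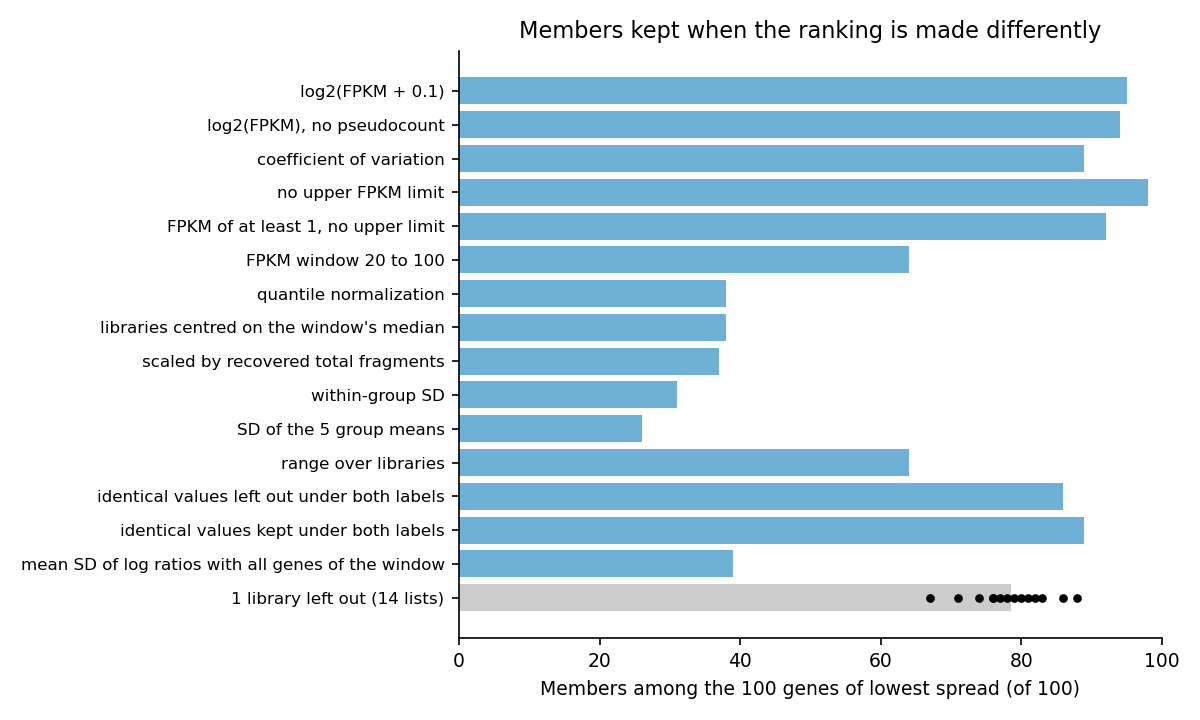
Number of the 100 members that are again among the 100 genes of lowest spread when the ranking is made in another way (bars, axis from 0 to 100), and for lists made without 1 library (black points, with the bar at their median). Lists with another scaling kept 37 to 39 members, and lists without 1 library kept 67 to 88.

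The measure of spread mattered as well. Ranking by the SD within groups kept 31 members, and ranking by the SD of the 5 group means kept 26. Only 3 members were in both of these lists.

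Leaving out any 1 library kept between 67 members (without Cd1 replicate 1) and 88 (without Cd2 replicate 2), and no member fell below place 182. In all 14 such lists, 55 members stayed, the first 10 among them. CSS0005495 stayed in only 2 of them, those without its highest (CK replicate 3) or its lowest library (Cd1 replicate 2). Both the 14 lists and the 3 other scalings retained 16 members, chosen here after the values were seen. They were CSS0044807, CSS0032713, CSS0004967, CSS0034728, CSS0007539, CSS0020706, CSS0035703, CSS0000631, CSS0015604, CSS0012573, CSS0031797, CSS0010275, CSS0034741, CSS0027244, CSS0049984 and the single member outside the reference annotation. The FPKM of the latter was 25.1, 24.2 and 24.9 in CK, 29.5 and 26.9 in Cd1, 25.9, 26.4 and 26.4 in Cd2, 26.7, 28.0 and 31.4 in As1, and 23.0, 26.2 and 26.5 in As2. It was highest in As1 replicate 3 and lowest in As2 replicate 1. In the window, 2.98% of the genes were outside the annotation.

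A library left out of the choice gives values that the choice did not use. The measure is not fully independent, since the other libraries of its group and the authors' scaling remained in the choice. For each library, 100 genes were chosen on the other 13, and their deviation in the left-out library from the mean of those 13 was measured; this was added after seeing the data. The median absolute deviation lay between 0.090 (Cd2 replicate 3) and 0.18 (As1 replicate 2), and that of all genes with an FPKM of 10 to 200 in the same 13 libraries between 0.16 and 0.31. In 14 of 14 libraries the chosen genes deviated less, by a factor of 0.49 to 0.76 (median 0.58). Between 54 (As1 replicate 2) and 89 (Cd2 replicate 2) of the 100 chosen genes were within 0.2 of their mean. In these same libraries, 34.0% (As1 replicate 2) and 54.1% (Cd2 replicate 2) of all genes with an FPKM of 10 to 200 in the other 13 were within it, and the highest such share was 57.9% (Cd2 replicate 3). Both lists and deviations overlap in the libraries they use, so no test was made. The gene that the choice placed in the list could deviate widely in the left-out library, by up to 0.91 in As1 replicate 1.

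**Figure D5:**
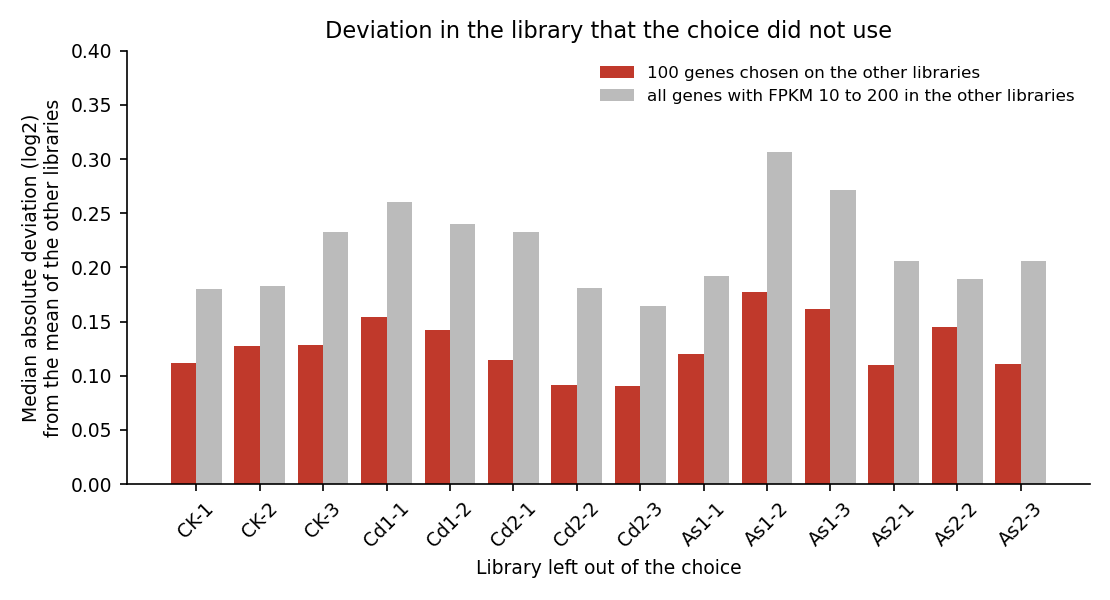
Median absolute deviation (log2 scale, axis from 0) in the library left out, from the mean of the other 13, for 100 genes chosen on those 13 (red) and for all genes with an FPKM of 10 to 200 in them (grey). The red bar is the lower in each of the 14 libraries and is highest for As1 replicate 2, at 0.18.

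Reference genes are used in pairs or small sets, and their ratio does not depend on the scaling of the libraries. The SD of the log2 ratio of FPKM was computed for all 4950 pairs of members. Its median was 0.16 and its maximum 0.23, beside a median of 0.44 over all pairs of the window. Low SDs of the ratios follow largely from the choice of members by low SD, so this contrast is no evidence of stability. The mean of these SDs for a gene, known as geNorm M, lay between 0.13 (CSS0037990) and 0.18. The lowest SD of a pair was 0.067, for CSS0036091 and CSS0010275. CSS0036091 was measured at 89.7, 94.0 and 90.5 in CK, 85.9 and 93.9 in Cd1, 84.7, 92.7 and 96.2 in Cd2, 100.8, 101.3 and 110.0 in As1, and 87.0, 91.2 and 89.7 in As2 FPKM. CSS0010275 was measured at 57.7, 54.3 and 52.0 in CK, 54.1 and 53.9 in Cd1, 51.6, 54.0 and 56.8 in Cd2, 58.0, 61.3 and 67.4 in As1, and 49.6, 53.0 and 58.9 in As2 FPKM. Both were highest in As1 replicate 3 and had their highest group mean in As1, so that they moved together rather than staying level.

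Stepwise removal of the member with the highest M ended with CSS0038908 and CSS0027239, a pair with an SD of 0.071. The FPKM of CSS0027239 was 55.8, 61.3 and 61.4 in CK, 60.6 and 62.8 in Cd1, 62.0, 67.3 and 66.4 in Cd2, 65.1, 59.8 and 74.5 in As1, and 59.2, 58.7 and 62.6 in As2. Both genes were lowest in CK replicate 1 and highest in As1 replicate 3. Both also had their lowest group mean in CK, so this pair too moved together rather than staying level. The mean of this pair had an SD of 0.093 over the libraries on the deposited scale. Adding the third gene, CSS0001743, changed the mean log2 level by an SD of 0.030, and the mean of 10 genes had an SD of 0.057. Ranked by SD after quantile normalization, CSS0038908, CSS0027239 and CSS0001743 stood at places 332, 507 and 1972. After centring on the window's median they stood at 95, 67 and 216, and with scaling by recovered fragments at 250, 224 and 475. Across the members, Pearson's r between the deviations of 2 genes had a median of 0.031 over the 4950 pairs and ranged from -0.84 to 0.82, over 14 libraries that all genes share.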

How the data were processed

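Expression was measured by RNA sequencing of tea roots in 15 labelled libraries. Per the methods, adapters and low-quality bases were removed, and HISAT served for mapping to the tea genome. The authors deposited FPKM values, for which the paper's results name DESeq2 and its methods name no program. The versions used for mapping and for the FPKM values, and the genome build, are not given in the sources used here. The file of Cd1 replicate 3 equals that of Cd2 replicate 1 in every value and names Cd2 in its header, so 14 libraries were used. Values of a gene are whole multiples of 1 step per library, which gave whole fragments and gene lengths for 46477 of 46517 genes above 0. These served for depth and for counting error, the SD that Poisson counts give on the log2 scale.

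The members and gene lists were chosen with earlier results of these data known. Spread, ranks and geNorm M were computed in Python 3.11.15 (numpy 2.4.6, pandas 2.3.3). Groups were compared by limma 3.58.1 in R 4.3.3 on log2(FPKM + 1), with a trend of variance on level, for genes reaching 1 FPKM in 3 or more libraries, and with Benjamini-Hochberg adjustment over all genes tested. The methods were run on simulated data in which stable genes were set well apart from all others. The ranking of genes near the limit of the list was therefore not tested by it. The study's fold limit was not used, since genes of so low an SD cannot pass it. Named by rule were the 10 members of lowest SD, the genes beside the limit, and the extremes of level, length, share of variance between groups and difference from CK. Scale, filter, scaling, measure of spread and libraries were varied. The deposited gene models and a RefSeq gene table, which hold no CSS identifiers, were not used.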

Additional observations from a re-analysis of the deposited data

How the results depend on the processing

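Of the 100 members, 64 were kept with an FPKM window of 20 to 100, since the other 36 lie outside it, 64 with the range over libraries in place of the SD, 38 with quantile normalization, 38 with libraries centred on the window's median, 37 with scaling by recovered total fragments, 31 with the SD within groups, 26 with the SD of group means and 39 with the scale-free mean SD of log ratios, which was chosen after seeing the data. The other alternatives in scale, filter and treatment of the identical values kept 86 to 98, and lists without 1 library kept 67 to 88. Followed over these settings, 26 named genes were within the lowest 100 in 545 of 746 rankings.

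The number of members called was 0 in all 119 alternative values. With the replicate number as a block, it was also 0 in every comparison. Between same-numbered libraries of different groups, deviations from the group means had a median r of 0.0090 (over 0.1 in 4 of 26 pairs). For libraries of different numbers the median r was 0.016 (over 0.1 in 13 of 52 pairs). Deviations from means of 2 or 3 libraries constrain each other, so these values cannot decide whether same-numbered libraries share a batch. The block lowered the calls over all genes from 1909 to 1152 (F test), 1133 to 697 (Cd1), 11 to 4 (Cd2), 643 to 424 (As1) and 5 to 0 (As2, with 2917 at an unadjusted p under 0.05). Over all alternatives, these counts ranged from 813 to 2421, 258 to 1732, 0 to 78, 104 to 743 and 0 to 112, with the highest each time without As2 replicate 2. The lowest counts at an unadjusted p under 0.05 were 2516 in Cd2 and 1923 in As2. Depth limits the least sampled members, to which counting alone gives an SD of up to 0.090.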

Other observations

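None of the 22 genes that the study names in its text was a member, and 2 of them lay in the FPKM window. Their SD on the log2 scale ranged from 0.48 to 3.00, with a median of 1.44. The study named these genes for changes under Cd or As in this series, and the members were chosen for low SD in it. The lack of shared genes and the contrast in SD therefore follow from how both lists were chosen, and nothing is read from them. The 100 genes of highest mean FPKM (552 and above) were all outside the window, which follows from its upper limit of 200 FPKM. Their SD ranged from 0.21 to 1.95 with a median of 0.58. Without an upper limit of FPKM, 98 of the 100 members were kept, so that 2 places went to genes with more than 200 FPKM in at least 1 library.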
